A study of Mus musculus with 18 samples.

Results

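GFP-positive and GFP-negative cells sorted from embryoid bodies on days 7 and 8 of differentiation were compared on 8 of the 18 arrays of the series, those whose titles name day 7 or day 8 and a GFP fraction. The GFP-positive group holds 4 arrays and the GFP-negative group 4 arrays, with 1 array of batch 1 and 1 of batch 2 for each fraction and day, and the titles pair the fractions by day and batch into 4 pairs. All cells came from the mouse embryonic stem cell line D3, grown on feeders of primary mouse embryonic fibroblasts that were removed before differentiation. They carried enhanced green fluorescent protein (GFP) behind a fragment of the Nkx2-5 enhancer and the hsp68 minimal promoter, together with a hygromycin resistance gene. Differentiation was started in hanging droplets without leukemia inhibitory factor, in medium with serum, to which ascorbic acid was added. Both fractions of a day share all of this and differ in the GFP gate.

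Several points limit the groups as a model. GFP reports an enhancer fragment and not the Nkx2-5 gene itself, transfected colonies were kept for GFP in contracting areas of the cultures, and the GFP-negative fraction was defined only by the lack of GFP and is not 1 cell type. The labels do not say which clone gave the sorted cells or whether each array stands for its own culture. The p-values therefore cover only how far these samples vary, and part or all of that variation may be technical. In sorted bulk RNA, fewer cells of a type and less RNA per cell cannot be told apart.

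Nkx2-5 encodes a homeobox transcription factor that marks heart progenitors and stays on in heart muscle. Heart muscle contracts through sarcomeres, in which thick filaments of myosin heavy and light chains slide along thin filaments of actin, tropomyosin and troponin, held in register by titin and Z-disc proteins. Embryoid bodies also form endothelium, whose growth is driven by VEGF receptors, blood cells, and an outer layer of visceral endoderm that secretes apolipoproteins and carrier proteins much as fetal liver does.

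The deposited values are MAS5 signals, scaled by the authors so that every array has the same trimmed mean. Over the 8 arrays the median signal lay between 20.5 and 29.3, and in each of the 4 pairs it was higher in the GFP-positive array. For Gapdh, read as a check of RNA quality, the signal at the 3' end over that at the 5' end was 1.28 to 1.64 in GFP-positive arrays and 1.36 to 1.55 in GFP-negative arrays. The same ratio for actin was 1.63 to 1.88 in GFP-positive arrays and 1.56 to 1.82 in GFP-negative arrays, higher in the GFP-positive array of 3 of the 4 pairs, and its part in the differences was not tested. Across genes, which are not independent replicates, arrays of the same fraction correlated with r between 0.929 and 0.981, and arrays of different fractions with r between 0.893 and 0.970. The fractions differed least in the day 7 batch 2 pair, where the SD of the differences over genes was 0.493, against 0.581 on day 7 in batch 1, 0.642 on day 8 in batch 1 and 0.866 on day 8 in batch 2. Per-array signals below are given in the order day 7 batch 1, day 7 batch 2, day 8 batch 1, day 8 batch 2. Differences are GFP-positive minus GFP-negative in log2(signal + 6.8), where the offset makes the change of a dim gene look smaller, with the standard error (SE) of a limma fit to the 4 pairs. Signals of different genes come from different probes and are not compared with each other.

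Of 11645 genes tested, 1665 (14.3%) passed an adjusted p of 0.05 in limma, with 1053 (9.04%) higher in GFP-positive cells and 612 (5.26%) lower. Of the 1665 genes, 1654 had the same sign in all 4 pairs, against 4754 of all 11645 tested genes (40.8%). The paired test itself favours genes with a shared sign. A change of at least a log2 of 1 was reached by 726 of the 1665, with 584 of these higher and 142 lower. The median difference over all tested genes was -0.001. The 4 GFP-positive arrays all lay above the 4 GFP-negative arrays for 969 genes (8.32%), and all below them for 659 (5.66%). The count was 356 when the day 7 batch 1 pair was left out and 852 without the day 8 batch 1 pair. Batch 1 alone gave 2319 calls, while batch 2 alone gave 0, with 2516 genes at an unadjusted p under 0.05. If the arrays are set to equal medians, all differences shift by a median of -0.18, and 866 of 2142 calls are higher (40.4%, against 63.2% with the deposited scaling), so directions below are relative to the deposited scaling.

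**Figure D1:**
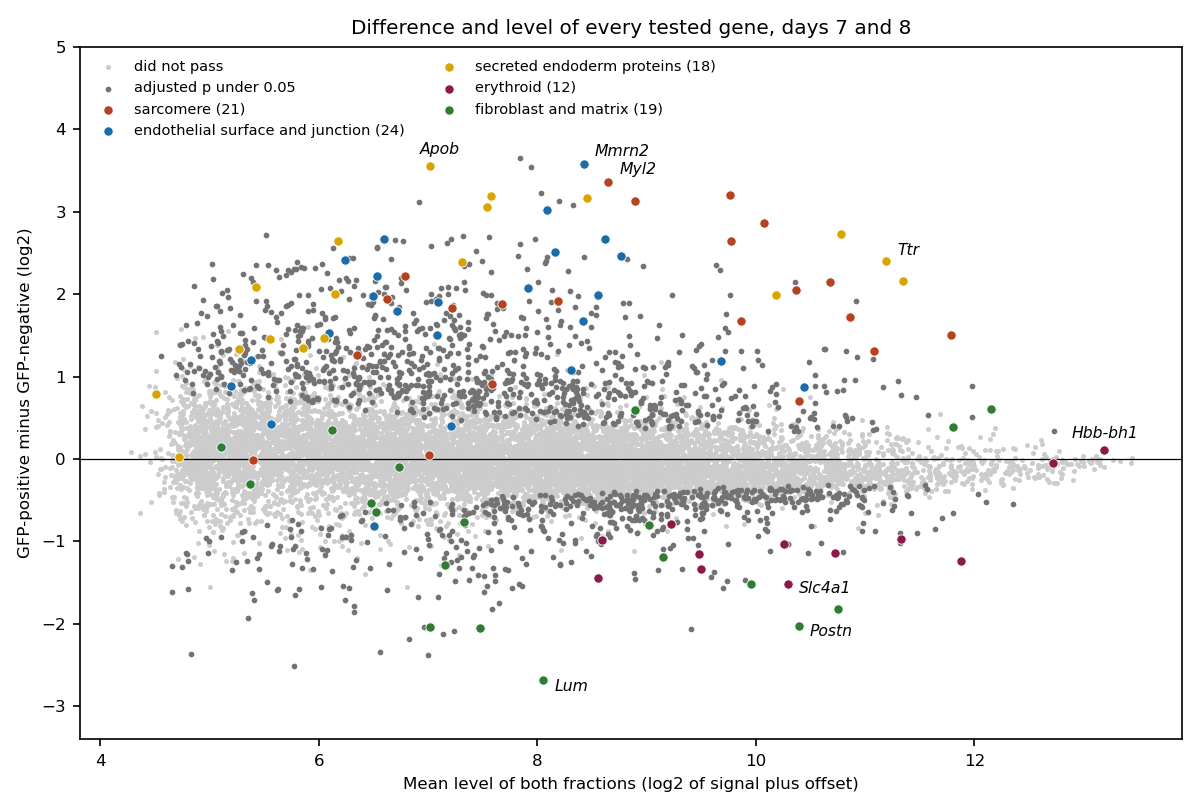
Each point is 1 of the 11645 tested genes, with its mean level over both fractions on the x axis (log2 of signal + 6.8) and the difference, GFP-positive minus GFP-negative (log2, mean of 4 pairs), on the y axis. Dark grey points passed an adjusted p of 0.05, and colours mark 5 gene lists. Sarcomere, endothelial and secreted endoderm genes lie mostly above 0, up to 3.57 for Mmrn2, and erythroid and matrix genes lie mostly below it, down to -2.68 for Lum.

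The gene behind the reporter was higher in the GFP-positive cells of every pair. Nkx2-5 had signals of 292, 216, 249 and 323 (GFP-positive), against 106, 75.5, 76.3 and 79.4 (GFP-negative). No GFP-negative array reached the lowest GFP-positive one, and the difference was 1.60 ± 0.15 (log2, SE, adjusted p = 0.00177), a 3.04-fold higher level. It was 1.52 in batch 1 and 1.69 in batch 2.

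Of 19 tested transcription factors of the heart, 8 rose and 0 fell, where 9.04% and 5.26% of all tested genes did. The median difference of the 19 was 0.66 (batch 1 0.45, batch 2 0.99). Myocd, a coactivator of serum response factor in heart and smooth muscle, had signals of 339.5, 269.5, 227 and 288 (GFP-positive), against 86.0, 66.5, 54.3 and 43.5 (GFP-negative). The fractions did not overlap, and the difference was 2.08 ± 0.17 (log2, SE, adjusted p = 0.00153). Hopx, a homeodomain protein that modulates serum response factor in the heart, had signals of 683, 406, 544 and 557 (GFP-positive), against 268, 159.8, 212 and 133 (GFP-negative). Again no array of one fraction overlapped the other, with a difference of 1.50 ± 0.15 (log2, SE, adjusted p = 0.00211). The remaining genes that rose were Irx5 (1.30), Tbx3 (1.46), Gata4 (1.38), Isl1 (1.25) and Gata5 (0.80), all of them regulators of heart progenitors or of heart patterning. Isl1, which marks progenitors of the second heart field, had signals of 325, 251, 407 and 492 (GFP-positive), against 150.4, 162, 238 and 77.5 (GFP-negative). Its GFP-negative signal was lowest on day 8 in batch 2, where the fractions stood furthest apart. Other factors of the same progenitors did not pass: Tbx5 differed by 0.07 ± 0.61 (SE, adjusted p = 0.955), Hand2 by 0.04 ± 0.24 (SE, adjusted p = 0.921), Mef2c by 0.10 ± 0.16 (SE, adjusted p = 0.72), Tbx20 by -0.07 ± 0.23 (SE, adjusted p = 0.879) and Gata6 by 0.00 ± 0.28 (SE, adjusted p = 0.994). The count of factors that rose was 4 without the day 7 batch 1 pair and 4 without the day 8 batch 1 pair.

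The sarcomere genes were higher in GFP-positive cells nearly throughout. Of 25 listed, 24 had a probe set and 21 were tested, of which 19 rose and 0 fell, with a median difference of 1.88 (batch 1 1.65, batch 2 2.12). In 18 of the 21 all 4 GFP-positive arrays lay above all 4 GFP-negative ones, as in 8.32% of all tested genes. Without any 1 pair the count lay between 16 and 19.

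Among the thick-filament genes, Myl2, the regulatory light chain of ventricular muscle, had signals of 1897, 1022, 1225 and 1131 (GFP-positive), against 233, 126, 109.7 and 59.6 (GFP-negative). The difference was 3.36 ± 0.20 (log2, SE, adjusted p = 0.00153), a 10.3-fold higher level. Myl3, the essential light chain of the ventricle, had signals of 3399, 1841, 2590.1 and 2980.0 (GFP-positive), against 603, 221, 342 and 132 (GFP-negative). Every GFP-positive array was at 1841 or above, and every GFP-negative array at 603 or below, and the difference was 3.21 ± 0.28 (log2, SE, adjusted p = 0.0017). Myh6, the alpha myosin heavy chain, had signals of 2921, 1193, 2478 and 2593 (GFP-positive), against 754, 205, 466 and 189.7 (GFP-negative), a difference of 2.64 ± 0.26 (log2, SE, adjusted p = 0.00195). Its day 7 batch 2 array was the lowest of the GFP-positive arrays. Myh7, the beta heavy chain of fetal ventricle, had signals of 3339, 1726, 3426 and 3589 (GFP-positive), against 675, 258, 579 and 231 (GFP-negative), and differed by 2.87 ± 0.24 (log2, SE, adjusted p = 0.0017). The light chains of the atrium also rose, Myl4 by 1.68 ± 0.18 (SE, adjusted p = 0.00254) and Myl7 by 1.72 ± 0.24 (SE, adjusted p = 0.00606).

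Among the thin-filament genes, Tnnt2 (cardiac troponin T) had signals of 4625, 2777, 3278 and 3375 (GFP-positive), against 1316, 642, 976 and 433 (GFP-negative). The fractions did not overlap, with a difference of 2.15 ± 0.19 (log2, SE, adjusted p = 0.00176). Tnnc1, the slow and cardiac troponin C, had signals of 3582, 2696, 2429 and 2185 (GFP-positive), against 1199.8, 802, 478 and 362 (GFP-negative), and differed by 2.05 ± 0.17 (log2, SE, adjusted p = 0.0017). Troponin I was represented by Tnni1, the slow fetal form, with a difference of 0.70 ± 0.11 (SE, adjusted p = 0.00827), and by Tnni3, the adult cardiac form, with 1.27 ± 0.19 (SE, adjusted p = 0.0078). Actc1 (cardiac actin) rose by 1.50 and Tpm1 (tropomyosin) by 1.31.

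The scaffold of the sarcomere moved the same way. Ttn, titin, had signals of 1866, 868, 1763 and 1353 (GFP-positive), against 312, 106, 219 and 74.9 (GFP-negative). The difference was 3.13 ± 0.23 (log2, SE, adjusted p = 0.00153), although a dimmer probe set of the gene had the opposite sign. Mybpc3, myosin-binding protein C, had signals of 611, 394, 583 and 693 (GFP-positive), against 196, 112, 160.5 and 117 (GFP-negative), a difference of 1.92 ± 0.17 (SE, adjusted p = 0.0017). The other genes that rose were Ldb3 (2.22), Actn2 (1.94), Csrp3 (1.88), Nebl (1.83) and Myom1 (0.91), which belong to the Z disc or the M band. Tcap, the titin cap, differed by -0.01 ± 0.23 (SE, adjusted p = 0.977), and Des, the muscle intermediate filament desmin, by 0.04 ± 0.28 (SE, adjusted p = 0.939). Myom2, Myoz2 and Smpx were too dim to be tested.

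Promoters of the sarcomere genes that rose were searched for the CArG box, the sequence bound by serum response factor, because these genes changed together and Myocd changed with them. RefSeq promoters (build GRCm38.p6, 250 bases before the annotated start) were found for 19 of the 19 genes, and 5 of them held a CArG box on either strand (26.3%), against 378 of 27025 promoters of all genes (1.4%). The 5 genes were Actc1, Ldb3, Myl3, Myl7 and Myom1. A match describes these letters and is not a measured binding site. The promoters of Myl3 (chr9:110763428-110763677, plus strand) and Ldb3 (chr14:34588682-34588931, minus strand) are printed 5' to 3' with the box in capitals, which begins at -85 in Myl3 and at -35 in Ldb3.
Myl3: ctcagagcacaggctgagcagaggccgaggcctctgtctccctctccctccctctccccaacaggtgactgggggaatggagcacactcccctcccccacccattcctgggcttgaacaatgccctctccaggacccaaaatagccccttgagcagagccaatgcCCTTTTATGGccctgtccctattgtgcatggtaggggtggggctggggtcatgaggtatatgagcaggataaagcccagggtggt
Ldb3: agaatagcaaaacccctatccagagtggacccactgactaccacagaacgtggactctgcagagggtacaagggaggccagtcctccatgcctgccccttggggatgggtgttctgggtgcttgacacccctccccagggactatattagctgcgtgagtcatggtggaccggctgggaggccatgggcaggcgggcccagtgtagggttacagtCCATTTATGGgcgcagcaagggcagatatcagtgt

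**Figure D2:**
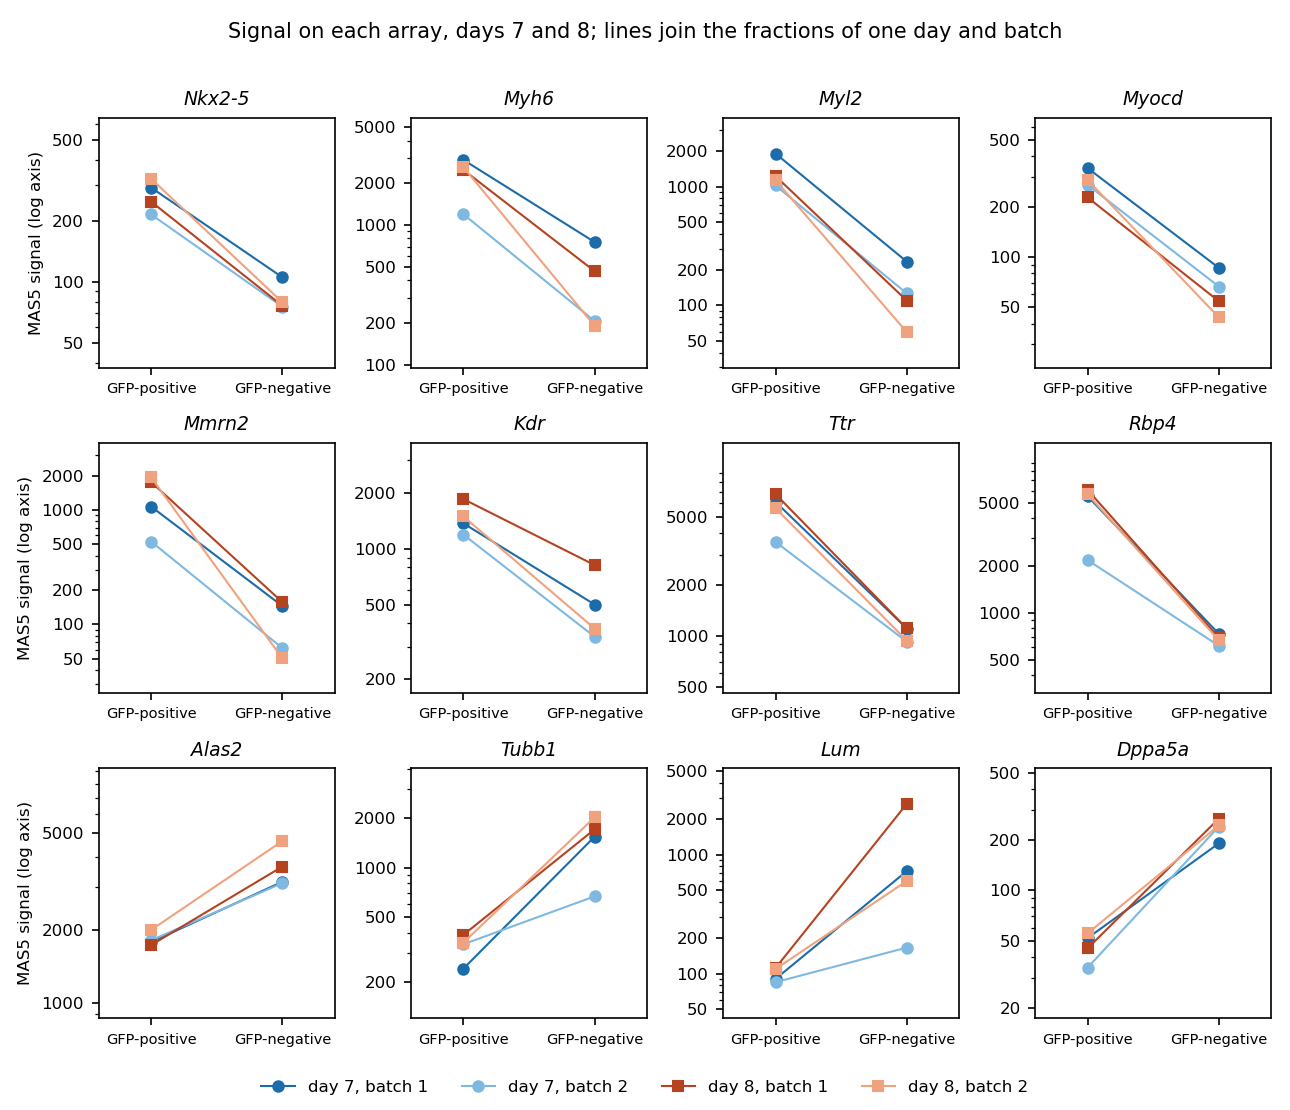
MAS5 signal (log axis) of 12 genes on each of the 8 arrays, GFP-positive on the left and GFP-negative on the right, with a line joining the fractions of 1 day and batch. Nkx2-5, heart muscle, endothelial and endoderm genes fall along every line, Alas2, Tubb1, Lum and Dppa5a climb along every line, and the day 7 batch 2 pair often has the flattest line, as in Rbp4 and Lum.

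Some genes of calcium handling and of ion channels were higher in GFP-positive cells. Of 11 tested, 5 rose and 0 fell, where 9.04% and 5.26% of all tested genes did. The list median was 0.84 (batch 1 0.79, batch 2 0.93). Slc8a1, the sodium-calcium exchanger, had signals of 79.8, 50.6, 74.0 and 56.8 (GFP-positive), against 19.6, 1.8, 26.6 and 7.7 (GFP-negative), a difference of 1.97 ± 0.28 (log2, SE, adjusted p = 0.00619). A weaker probe set of Slc8a1 had the opposite sign. Ryr2, the calcium release channel of the heart, had signals of 115, 60.4, 83.6 and 88.9 (GFP-positive), against 18.4, 25.5, 44.7 and 25.6 (GFP-negative), a difference of 1.43 ± 0.27 (log2, SE, adjusted p = 0.0156). The other probe set of Ryr2 differed by only 0.057, so its rise rests on 1 probe set. Cacna1c, the L-type calcium channel (1.49), Jph2, which anchors the sarcoplasmic reticulum to the surface membrane (1.14), and Casq1, a calsequestrin of skeletal muscle (0.95), also rose. The other probe sets of Cacna1c and Jph2 differed by 0.626 and 0.264. The calcium pump Atp2a2 differed by 0.19 ± 0.08 (SE, adjusted p = 0.168) and its inhibitor Pln by 0.55 ± 0.29 (SE, adjusted p = 0.229). Only 1 of these genes passed without the day 7 batch 1 pair.

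Of 10 tested genes of natriuretic peptides and muscle energy use, 4 rose and 0 fell, where 9.04% and 5.26% of all tested genes did. The list median was 0.74 (batch 1 0.73, batch 2 0.67). The 4 that rose were Cox6a2, a muscle subunit of cytochrome oxidase, the small heat shock proteins Cryab and Hspb7, and Ankrd1. A dimmer probe set of Cryab had the opposite sign. Cox6a2 had signals of 216, 127, 148 and 137 (GFP-positive), against 64.2, 37.0, 62.0 and 53.9 (GFP-negative), and differed by 1.42 ± 0.17 (log2, SE, adjusted p = 0.00323). Nppb, the B-type natriuretic peptide, differed by 0.68 ± 0.32 (SE, adjusted p = 0.193), and Nppa was too dim to be tested. The count was 1 without the day 7 batch 1 pair.

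Of 10 tested smooth muscle genes, 2 rose, where 9.04% of all tested genes did, Smtn by 0.94 and Myl9 by 0.85, and the list median was 0.15, or -0.02 with equal array medians. Without the day 7 batch 1 pair 0 of them passed, and without the day 7 batch 2 or the day 8 batch 1 pair 1 did. Acta2 (smooth muscle actin) differed by 0.24 ± 0.08 (SE, adjusted p = 0.088) and Tagln by 0.07 ± 0.23 (SE, adjusted p = 0.876). Of 5 tested skeletal muscle genes 1 rose, Acta1, skeletal actin, which fetal heart also expresses, with signals of 592, 228, 378 and 382 (GFP-positive), against 206, 54.3, 142 and 36.8 (GFP-negative). Its difference was 1.99 ± 0.28 (log2, SE, adjusted p = 0.00626). The list median was 0.04, or -0.14 with equal array medians, and the skeletal muscle regulators Myod1, Myog and Myf5 were too dim to be tested.

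Most endothelial genes were higher in GFP-positive cells. Of 24 tested surface and junction genes, 20 rose and 0 fell, and the median difference was 1.85 (batch 1 1.65, batch 2 1.91). In 20 of the 24 all GFP-positive arrays lay above all GFP-negative ones, as in 8.32% of all tested genes. The summed signal of the list lay between 8169.7 and 16096 in GFP-positive cells, against 2925 to 4264 in GFP-negative cells. Without any 1 pair the count lay between 15 and 20.

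Mmrn2, an extracellular matrix glycoprotein of vessels, had signals of 1070.3, 529.5, 1754 and 1928 (GFP-positive), against 145, 62.1, 156 and 50.5 (GFP-negative). The difference was 3.57 ± 0.34 (log2, SE, adjusted p = 0.00195), an 11.9-fold higher level. Icam2, an adhesion molecule of endothelial junctions, had signals of 682, 462, 939 and 1187 (GFP-positive), against 136, 98.7, 115 and 38.2 (GFP-negative), and differed by 3.03 ± 0.39 (log2, SE, adjusted p = 0.00449). On day 8 of batch 2 it was lowest in the GFP-negative array and highest in the GFP-positive array. Calcrl and Ramp2, which together form an adrenomedullin receptor, rose by 2.67 ± 0.18 (SE, adjusted p = 0.00153) and by 2.47 ± 0.24 (SE, adjusted p = 0.00196). Calcrl had signals of 1300.2, 749.8, 1004 and 966 (GFP-positive), against 189.9, 168, 165 and 93.0 (GFP-negative). Its other probe sets differed by less, 0.584 and 1.004. Of the classical markers, Cdh5 (VE-cadherin) had signals of 169.9, 114, 234 and 277 (GFP-positive), against 41.6, 60.4, 58.2 and 41.2 (GFP-negative), a difference of 1.79 ± 0.27 (SE, adjusted p = 0.00716). Pecam1 had signals of 77.7, 77.2, 121 and 193 (GFP-positive), against 35.6, 30.1, 38.2 and 30.0 (GFP-negative), a difference of 1.53 ± 0.26 (SE, adjusted p = 0.0114). Both were above the other fraction on all 4 arrays. Cldn5, a claudin of endothelial tight junctions, rose by 1.67 ± 0.16 (SE, adjusted p = 0.00195), and Cd34 by 1.08 ± 0.28 (SE, adjusted p = 0.0425). Vwf, the von Willebrand factor of mature endothelium, differed by 0.40 ± 0.22 (SE, adjusted p = 0.256), Robo4 by 0.88 ± 0.30 (SE, adjusted p = 0.0928) and Mmrn1 by -0.81 ± 0.30 (SE, adjusted p = 0.11), and none of the 3 passed.

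Of 20 endothelial transcription factors, 11 rose and 0 fell, where 9.04% and 5.26% of all tested genes did. The list median was 1.05 (batch 1 0.84, batch 2 1.25). The SoxF factors, which direct arterial and lymphatic vessel identity, all rose. Sox18 had signals of 543, 574, 597 and 761 (GFP-positive), against 141, 115, 101 and 92.0 (GFP-negative), a difference of 2.40 ± 0.18 (log2, SE, adjusted p = 0.00153). Sox7 had signals of 294, 323, 391 and 482 (GFP-positive), against 68.6, 68.8, 58.8 and 25.1 (GFP-negative), a difference of 2.67 ± 0.31 (log2, SE, adjusted p = 0.00323). Sox17, which is also a regulator of endoderm, had signals of 403, 277, 669 and 653 (GFP-positive), against 76.7, 71.5, 78.6 and 46.9 (GFP-negative), a difference of 2.69 ± 0.27 (log2, SE, adjusted p = 0.00211). None of the 3 overlapped between the fractions. The ETS factors Erg (2.08), Ets1 (1.37), Elk3 (1.63) and Etv2 (0.81), together with Bcl6b (2.58), Klf2 (1.59), Prdm1 (1.29) and Foxc2 (1.79), make up the rest. Among the factors of the list that did not pass, Tal1 differed by -0.57 ± 0.16 (SE, adjusted p = 0.0519), Lmo2 by -0.50 ± 0.16 (SE, adjusted p = 0.0812), Fli1 by 0.17 ± 0.21 (SE, adjusted p = 0.627) and Gata2 by 0.56 ± 0.16 (SE, adjusted p = 0.0518).

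AGGAAG, a sequence that ETS factors can bind, was searched on both strands of the promoters of the surface and junction genes that rose, since ETS factors rose with them. Of the 20 genes, 8 had a promoter in the RefSeq table, and 6 of the 8 held the hexamer (75%), against 7879 of 27025 promoters (29.2%). A match is not a measured binding site, and whether ETS factors act on these genes was not tested. The promoter of Calcrl (chr2:84425267-84425516, minus strand, GRCm38.p6) shows the hexamer in capitals at -66.
Calcrl: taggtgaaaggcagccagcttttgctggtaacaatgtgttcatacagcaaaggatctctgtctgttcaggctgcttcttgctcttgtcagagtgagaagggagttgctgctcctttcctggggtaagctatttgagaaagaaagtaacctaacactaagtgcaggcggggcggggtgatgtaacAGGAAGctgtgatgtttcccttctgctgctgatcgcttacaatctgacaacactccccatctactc

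In the VEGF, angiopoietin, Notch and ephrin pathways, 17 of 23 tested genes rose and 0 fell, where 9.04% and 5.26% of all tested genes did. The list median was 1.36 (batch 1 1.26, batch 2 1.30). Among the ligands, Vegfc, which acts on Flt4, had signals of 463, 295, 989 and 1172 (GFP-positive), against 209, 121, 230.5 and 83.9 (GFP-negative), a difference of 2.03 ± 0.39 (log2, SE, adjusted p = 0.0169). Vegfa rose by 0.44 ± 0.12 (SE, adjusted p = 0.0471), with overlapping fractions. Among the VEGF receptors, Kdr had signals of 1373, 1195, 1852 and 1495 (GFP-positive), against 504, 338, 820.1 and 375 (GFP-negative), a difference of 1.59 ± 0.14 (log2, SE, adjusted p = 0.00177). Flt1, which binds VEGF and restrains its signal, had signals of 442, 259, 867 and 968 (GFP-positive), against 96.5, 45.9, 119 and 100.3 (GFP-negative), a difference of 2.61 ± 0.19 (log2, SE, adjusted p = 0.00153). Flt4 rose by 2.08 ± 0.27 (SE, adjusted p = 0.00443). All 3 receptors had no overlap between the fractions. The angiopoietin receptors Tek and Tie1 rose by 1.72 ± 0.16 (SE, adjusted p = 0.00177) and by 1.90 ± 0.25 (SE, adjusted p = 0.00471), while the ligand Angpt1 differed by -1.17 ± 0.36 (SE, adjusted p = 0.069) and Angpt2 by -0.13 ± 0.20 (SE, adjusted p = 0.69).

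In the Notch pathway, the receptor Notch1 had signals of 445, 345, 689.8 and 753 (GFP-positive), against 139, 90.1, 141 and 99.4 (GFP-negative), a difference of 2.14 ± 0.20 (log2, SE, adjusted p = 0.00177). The endothelial receptor Notch4 (2.33), the ligands Dll4 (1.51), Jag2 (0.97) and Jag1 (0.68) and the targets Hey1 (1.77) and Hey2 (1.36) rose as well. Hey1, a repressor that Notch induces, had signals of 688, 411, 882 and 749 (GFP-positive), against 273, 184, 185 and 135 (GFP-negative). The fractions did not overlap in Hey1, and they overlapped in Dll4 and Jag1. Efnb2, an ephrin ligand of arteries, rose by 1.73 ± 0.27 (SE, adjusted p = 0.00809), and its venous receptor Ephb4 by 1.34 ± 0.35 (SE, adjusted p = 0.0432). The count over the 23 genes was 10 without the day 7 batch 1 pair and 11 without the day 8 batch 1 pair.

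Of 14 genes of endocardium and heart cushions, 4 rose and 1 fell, where 9.04% and 5.26% of all tested genes did. The list median was 0.55 (batch 1 0.28, batch 2 0.68). Hapln1, which links hyaluronan to proteoglycans in the cushions, had signals of 532, 546, 705 and 778 (GFP-positive), against 144, 94.9, 156 and 66.6 (GFP-negative), a difference of 2.46 ± 0.24 (log2, SE, adjusted p = 0.00198). Npr3, the natriuretic peptide clearance receptor, had signals of 248, 139, 376 and 381 (GFP-positive), against 44.8, 18.6, 94.0 and 20.3 (GFP-negative), a difference of 2.65 ± 0.30 (log2, SE, adjusted p = 0.00298). Plxnd1, a semaphorin receptor of endothelium, rose by 1.79 ± 0.16 (SE, adjusted p = 0.00176), and Bmp2, whose fractions overlapped, by 0.63 ± 0.14 (SE, adjusted p = 0.029). Nfatc1, a transcription factor of endocardium, differed by 0.44 ± 0.19 (SE, adjusted p = 0.162) and did not pass. The gene that fell, Postn, is described with the matrix genes.

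Genes of visceral endoderm and fetal liver were also higher in GFP-positive cells, and their list had the highest median of the 26 lists under the deposited scaling. Of 18 tested secreted proteins, 14 rose and 0 fell, where 9.04% and 5.26% of all tested genes did. The 18 genes had a median of 2.12 (batch 1 2.07, batch 2 2.36). Their summed signal lay between 12026 and 29720.0 in GFP-positive cells, against 3154 to 6843 in GFP-negative cells. The count lay between 12 and 15 when any 1 pair was left out.

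Among the carrier proteins, Ttr (transthyretin, which carries thyroid hormone) had signals of 6121, 3564, 6804 and 5621 (GFP-positive), against 1103, 922, 1104 and 936 (GFP-negative). The difference was 2.40 ± 0.13 (log2, SE, adjusted p = 0.00153). Rbp4, the carrier of retinol, had signals of 5548, 2167, 6085 and 5710.5 (GFP-positive), against 730.5, 613, 691 and 664 (GFP-negative), a difference of 2.73 ± 0.21 (log2, SE, adjusted p = 0.00153). In both genes the day 7 batch 2 array was the lowest of the GFP-positive arrays, yet above every GFP-negative one. Afp, alpha-fetoprotein, had signals of 2926, 495, 4917 and 4055 (GFP-positive), against 699, 149.5, 2327 and 445 (GFP-negative), a difference of 2.00 ± 0.29 (log2, SE, adjusted p = 0.00677), and its fractions overlapped. Alb, albumin, was dim in both fractions and differed by 0.02 ± 0.36 (SE, adjusted p = 0.978).

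Among the lipoprotein genes, Apob, the structural protein of very low density lipoprotein, had signals of 408, 140.3, 616 and 1034 (GFP-positive), against 29.7, 24.5, 41.7 and 30.1 (GFP-negative). The difference was 3.56 ± 0.36 (log2, SE, adjusted p = 0.00211), an 11.8-fold higher level. Apoa1 had signals of 479, 182, 996 and 902 (GFP-positive), against 69.0, 30.0, 81.3 and 62.9 (GFP-negative), a difference of 3.06 ± 0.24 (log2, SE, adjusted p = 0.00153). Apoe rose by 2.16 ± 0.14 (SE, adjusted p = 0.00153), Apom by 3.19 ± 0.24 (SE, adjusted p = 0.00153) and Apoc2 by 2.09 ± 0.20 (SE, adjusted p = 0.00195). Mttp, the transfer protein that loads lipid onto Apob, rose by 2.39 ± 0.18 (SE, adjusted p = 0.00153). The remaining secreted proteins that rose were the protease inhibitors Spink1 (3.17) and Serpinf2 (1.35), the clotting proteins Fgb (2.00) and F2 (1.46), and the carboxypeptidase subunit Cpn1 (2.64).

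Of 10 endoderm transcription factors, 6 rose and 0 fell, where 9.04% and 5.26% of all tested genes did. The list median was 1.29. Hnf4a, a nuclear receptor of liver and visceral endoderm, had signals of 114, 87.4, 188 and 210.4 (GFP-positive), against 27.7, 41.7, 10.2 and 17.4 (GFP-negative). The fractions did not overlap, and the difference was 2.36 ± 0.41 (log2, SE, adjusted p = 0.0122); a dimmer probe set had the opposite sign. Foxa2, a forkhead factor of endoderm, had signals of 282, 148, 354 and 282 (GFP-positive), against 78.4, 115, 130.3 and 73.4 (GFP-negative), a difference of 1.33 ± 0.25 (log2, SE, adjusted p = 0.016). Nr5a2 rose by 1.31 ± 0.18 (SE, adjusted p = 0.00514) and Prox1 by 0.69 ± 0.19 (SE, adjusted p = 0.0486), and Sox17 and Gata4 were given above. A dimmer probe set of Nr5a2 differed by -0.076. Foxa1 differed by 1.27 ± 0.41 (SE, adjusted p = 0.0802) and Cdx2, a factor of hindgut and trophoblast, by 0.22 ± 0.28 (SE, adjusted p = 0.631). The count was 2 without the day 7 batch 1 pair and 3 without the day 8 batch 1 pair.

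Of 16 genes of endocytic receptors, basement membrane and epithelium, 13 rose and 0 fell, where 9.04% and 5.26% of all tested genes did. The list median was 1.72 (batch 1 1.67, batch 2 1.66). Dab2, an adaptor for endocytic receptors, had signals of 1751, 919, 1670.5 and 2157 (GFP-positive), against 425, 295, 719 and 461 (GFP-negative), a difference of 1.76 ± 0.17 (log2, SE, adjusted p = 0.00177). Cubn and Amn, which form the cubam receptor of absorptive epithelia, rose by 1.47 ± 0.26 (SE, adjusted p = 0.0127) and by 1.80 ± 0.24 (SE, adjusted p = 0.0049). Epcam, an adhesion molecule of epithelia, had signals of 1164, 473, 1871 and 1948 (GFP-positive), against 365, 235, 469.8 and 185 (GFP-negative), a difference of 1.99 ± 0.33 (log2, SE, adjusted p = 0.0104). Cdh1 (E-cadherin) had signals of 491, 142, 664 and 628 (GFP-positive), against 154, 109, 175 and 74.0 (GFP-negative), a difference of 1.71 ± 0.36 (log2, SE, adjusted p = 0.0222), and its fractions overlapped. Cldn6 rose by 2.34 ± 0.30 (SE, adjusted p = 0.00445) and Krt18 by 1.22 ± 0.26 (SE, adjusted p = 0.0252), while Krt8 and Krt19 did not pass. Col4a1, the basement membrane collagen that vessels also make, rose by 2.15 ± 0.26 (SE, adjusted p = 0.00353). The count was 6 without the day 7 batch 1 pair.

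The 12 highest differences, taken over all genes with the same sign in 4 pairs, included heart, endothelial and endoderm genes: Igfbp1 (3.66), Mmrn2 (3.57), Apob (3.56), Nepn (3.54), Myl2 (3.36), Dpp4 (3.23), Myl3 (3.21), Apom (3.19), Spink1 (3.17), Ttn (3.13), Cd93 (3.13) and Klhl4 (3.12). Igfbp1, a binding protein for insulin-like growth factors, had signals of 964, 40.3, 3416 and 2796 (GFP-positive), against 56.7, 17.1, 175 and 56.1 (GFP-negative). Its day 7 batch 2 array was near the GFP-negative level, the fractions overlapped, and the difference was 3.66 ± 0.61 (log2, SE, adjusted p = 0.0112). Dpp4, a cell-surface peptidase, had signals of 813, 365, 1095 and 1208 (GFP-positive), against 77.1, 69.7, 89.4 and 79.0 (GFP-negative), a difference of 3.23 ± 0.24 (log2, SE, adjusted p = 0.00153). Cd93, a surface receptor of endothelium and myeloid cells, had signals of 732, 508, 1130.3 and 1309.6 (GFP-positive), against 144, 77.1, 107 and 60.0 (GFP-negative), a difference of 3.13 ± 0.30 (log2, SE, adjusted p = 0.00195). Nepn (nephrocan, a secreted proteoglycan) had signals of 949.5, 84.9, 2431 and 2324 (GFP-positive), against 80.9, 24.0, 124 and 70.2 (GFP-negative), and its day 7 batch 2 array again stood far below the other GFP-positive ones.

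**Figure D3:**
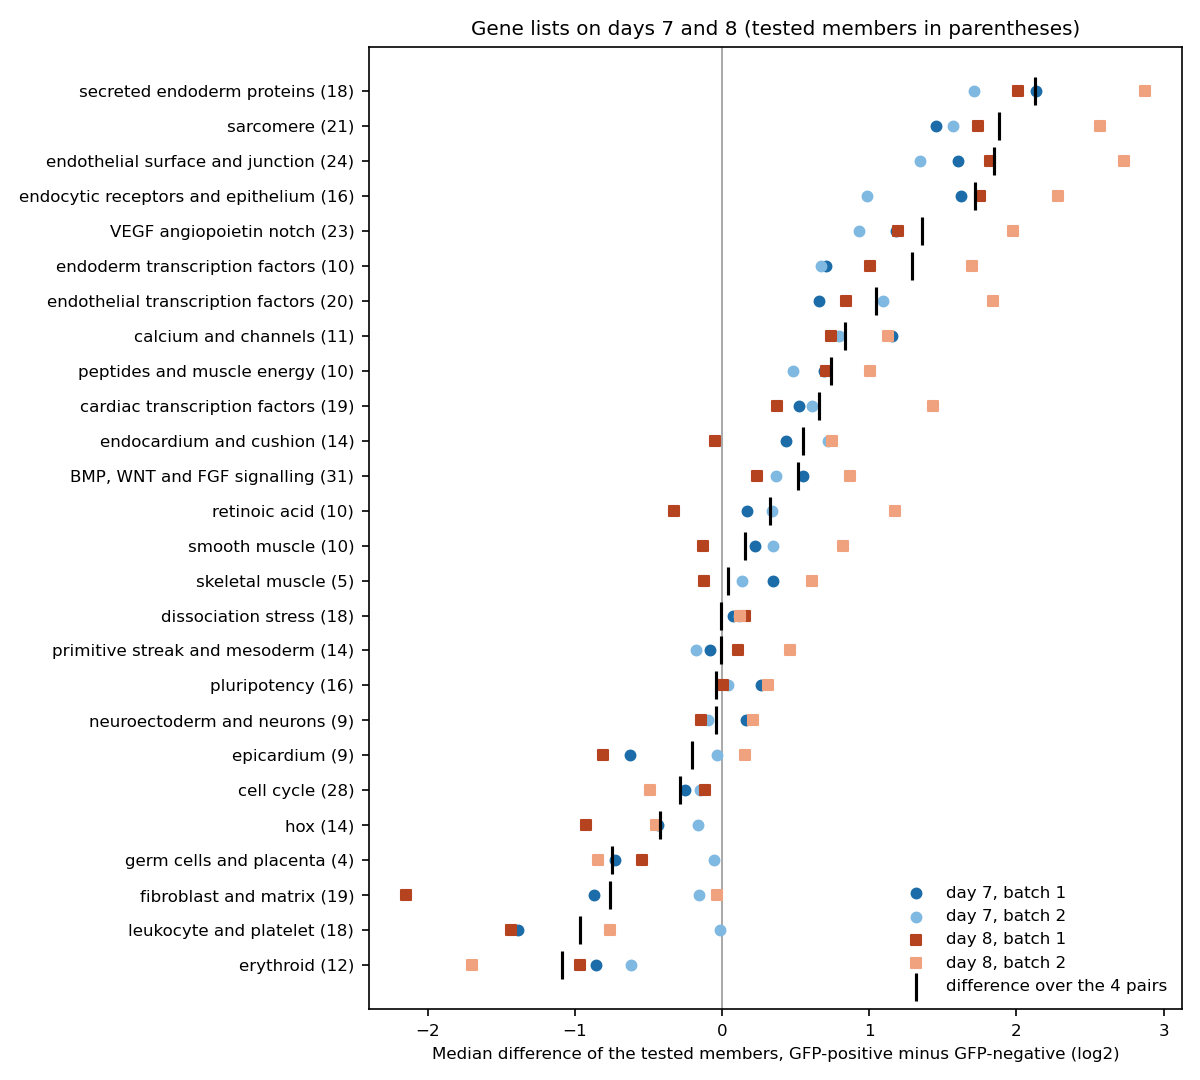
Median difference of the tested members of each of 26 gene lists, GFP-positive minus GFP-negative (log2), with the number tested in parentheses. Circles (day 7) and squares (day 8) give each pair, dark for batch 1 and light for batch 2, and the black bar is the median of the differences over the 4 pairs. The sarcomere, heart transcription factor, endothelial surface and secreted endoderm lists are above 0 in all 4 pairs and highest on day 8 in batch 2, and the matrix list lies at -2.15 on day 8 in batch 1 but at -0.03 on day 8 in batch 2.

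Signalling genes were less uniform. Of 31 genes of the BMP, WNT and FGF pathways, 10 rose and 0 fell, where 9.04% and 5.26% of all tested genes did. The list median was 0.52 (batch 1 0.24, batch 2 0.68). Among ligands, Bmp7 had signals of 127, 96.5, 150.1 and 137 (GFP-positive), against 58.2, 42.1, 58.6 and 57.9 (GFP-negative), a difference of 1.13 ± 0.15 (log2, SE, adjusted p = 0.00505). Wnt5a rose by 0.92 ± 0.21 (SE, adjusted p = 0.0312), and Bmp4, the main BMP of early mesoderm, differed by 0.05 ± 0.22 (SE, adjusted p = 0.904). Bmper, a secreted modulator of BMP, had signals of 128, 105, 125 and 100.4 (GFP-positive), against 33.3, 30.3, 39.1 and 19.7 (GFP-negative), a difference of 1.72 ± 0.18 (log2, SE, adjusted p = 0.00225). The Id genes, which encode inhibitors of helix-loop-helix factors, rose, Id1 by 0.59, Id2 by 1.14 and Id3 by 1.18. The WNT receptor Fzd4 (0.91), the WNT effector Lef1 (1.18) and the FGF feedback inhibitor Spry2 (0.96) rose too. The count was 3 without the day 7 batch 1 pair, and with equal array medians 3 genes of the list fell.

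Of 10 tested retinoic acid genes, 3 rose and 0 fell, where 9.04% and 5.26% of all tested genes did. The list median was 0.33 (batch 1 -0.14, batch 2 0.76). Besides Rbp4, the genes that rose were the enzymes that degrade retinoic acid. Cyp26a1 had signals of 358, 297, 400.1 and 395 (GFP-positive), against 76.2, 102, 87.5 and 80.1 (GFP-negative), a difference of 1.99 ± 0.16 (log2, SE, adjusted p = 0.00153). Cyp26b1 rose by 1.58 ± 0.38 (SE, adjusted p = 0.0337). Aldh1a2, which makes retinoic acid, differed by -0.80 ± 0.32 (SE, adjusted p = 0.137), and did not pass.

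Erythroid genes were lower in GFP-positive cells. Of 12 tested, 0 rose and 10 fell, where 9.04% and 5.26% of all tested genes did. The 12 genes had a median of -1.09 (batch 1 -0.95, batch 2 -1.18). Their summed signal lay between 23474 and 27471 in GFP-positive cells, against 32194 to 40748 in GFP-negative cells. The count was 5 without the day 7 batch 1 pair.

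Alas2, the first enzyme of heme synthesis in red cells, had signals of 1778, 1809, 1729 and 1996 (GFP-positive), against 3154, 3114, 3642 and 4641 (GFP-negative). Every GFP-positive array was below every GFP-negative one, a difference of -0.97 ± 0.10 (log2, SE, adjusted p = 0.0024). Slc4a1, the anion exchanger of the red cell membrane, had signals of 814, 835, 672 and 635 (GFP-positive), against 2048, 1800.0, 1700.2 and 3231 (GFP-negative), a difference of -1.52 ± 0.19 (log2, SE, adjusted p = 0.00426). Ermap, an erythroid membrane protein, had signals of 468, 518, 325 and 513 (GFP-positive), against 973, 1093, 985 and 1616 (GFP-negative), a difference of -1.33 ± 0.14 (log2, SE, adjusted p = 0.00212). The erythroid transcription factors fell as well, with differences of -1.14 ± 0.20 (SE, adjusted p = 0.0119) for Klf1, -1.03 ± 0.19 (SE, adjusted p = 0.0138) for Gata1, -1.16 ± 0.19 (SE, adjusted p = 0.0109) for Nfe2 and -0.79 ± 0.19 (SE, adjusted p = 0.0335) for Gfi1b, and with overlap in all but Nfe2. The embryonic globin Hbb-y had signals of 3022, 989, 3770.0 and 3151 (GFP-positive), against 6494, 3674, 6559 and 7176 (GFP-negative), a difference of -1.24 ± 0.17 (log2, SE, adjusted p = 0.00489). Its other probe sets differed by only -0.089 and -0.078, so the fall of Hbb-y rests on 1 probe set. The embryonic globins Hbb-bh1 and Hba-x did not pass, with differences of 0.11 ± 0.08 (SE, adjusted p = 0.362) and -0.05 ± 0.09 (SE, adjusted p = 0.749). Their signals, 9955, 10549, 9717 and 8620.2 for Hbb-bh1 in GFP-positive cells and 9660.0, 9456, 8605 and 8237 in GFP-negative cells, lie near the highest value on these arrays, which was 12828.

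The GATA sequence AGATAA was searched on both strands of the promoters of the erythroid genes that fell, since Gata1 fell with them. Promoters were found for 8 of the 10 genes, and 3 held the hexamer (37.5%), against 2771 of 27025 promoters (10.3%). They were Alas2, Epb42 and Epor. A match is not a measured binding site, and whether Gata1 acts on these genes was not tested. The promoter of Alas2 (chrX:150547167-150547416, plus strand, GRCm38.p6) has the hexamer at -86 on the opposite strand, shown in capitals as it reads on the printed strand.
Alas2: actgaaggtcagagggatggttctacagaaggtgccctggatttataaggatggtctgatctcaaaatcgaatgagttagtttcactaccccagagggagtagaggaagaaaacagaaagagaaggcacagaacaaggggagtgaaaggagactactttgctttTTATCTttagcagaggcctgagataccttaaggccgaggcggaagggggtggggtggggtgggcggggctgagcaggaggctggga

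Some leukocyte and platelet genes were lower in GFP-positive cells, and the list median was near 0 in 1 of the 4 pairs. Of 18 tested, 1 rose and 7 fell, where 9.04% and 5.26% of all tested genes did. The medians were -1.39 on day 7 and -1.44 on day 8 in batch 1, and -0.01 on day 7 and -0.76 on day 8 in batch 2. Pf4, platelet factor 4, had signals of 374, 194, 1099.6 and 1265 (GFP-positive), against 2252, 281, 4199.7 and 2341 (GFP-negative), a difference of -1.47 ± 0.31 (log2, SE, adjusted p = 0.023). Gp9 and Gp1bb, subunits of the platelet receptor for von Willebrand factor, fell, with differences of -1.86 ± 0.40 (SE, adjusted p = 0.0238) and -1.68 ± 0.29 (SE, adjusted p = 0.0119). Another probe set of Gp1bb differed by only -0.261. Ptprc, the pan-leukocyte antigen CD45, had signals of 94.0, 46.1, 155 and 173 (GFP-positive), against 301, 52.4, 344 and 523 (GFP-negative), a difference of -1.11 ± 0.25 (log2, SE, adjusted p = 0.027). In each of these genes the GFP-negative array of day 7 batch 2 was the lowest of its fraction and overlapped the GFP-positive arrays. Tyrobp, Fcer1g and Lyz2, genes of myeloid cells, fell, with differences of -0.99, -1.13 and -0.92. Mrc1, a scavenger receptor of macrophages that is also found on sinusoidal and embryonic endothelium, rose by 1.45 ± 0.33 (SE, adjusted p = 0.0308). Of these genes 0 fell without the day 7 batch 1 pair in limma, with 1 falling without the day 8 batch 1 pair, 4 without the day 8 batch 2 pair and 12 without the day 7 batch 2 pair. Outside the lists, Tubb1, the beta-tubulin of platelets and megakaryocytes, had signals of 242, 340.4, 388 and 348 (GFP-positive), against 1544, 668, 1712 and 2026 (GFP-negative), a difference of -2.06 ± 0.26 (log2, SE, adjusted p = 0.00416).

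Fibroblast and matrix genes were lower in GFP-positive cells mainly in batch 1. Of 19 tested, 1 rose and 6 fell, where 9.04% and 5.26% of all tested genes did. The list median was -0.76 (batch 1 -1.50, batch 2 -0.10). Lum, the proteoglycan lumican, had signals of 90.1, 84.6, 111 and 109 (GFP-positive), against 726, 165, 2669 and 599.7 (GFP-negative). The 4 GFP-positive arrays lay between 84.6 and 111, while the GFP-negative arrays were spread widely, and the difference was -2.68 ± 0.48 (log2, SE, adjusted p = 0.0136). Postn, periostin, a matrix protein of mesenchyme, had signals of 665, 783, 628 and 575 (GFP-positive), against 3491, 1283, 4703 and 2569.8 (GFP-negative), a difference of -2.03 ± 0.31 (log2, SE, adjusted p = 0.00776). Col3a1, a fibrillar collagen, had signals of 744, 765, 1107 and 1091 (GFP-positive), against 4769, 1018, 6211 and 3617 (GFP-negative), a difference of -1.82 ± 0.34 (log2, SE, adjusted p = 0.0145). It overlapped between the fractions through the day 7 batch 2 pair. Cthrc1 (-2.05), Col1a1 (-1.29) and Col1a2 (-1.51) also fell, Dcn (decorin) differed by -2.04 ± 0.57 (SE, adjusted p = 0.0536), and Vim, vimentin, rose by 0.60 ± 0.14 (SE, adjusted p = 0.0292). Primary fibroblasts had been the feeders of the stem cells before differentiation, and whether any remained was not tested. Without the day 7 batch 1 pair 0 of these genes fell in limma.

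Of 9 genes of epicardium and mesothelium, 1 rose and 2 fell, where 9.04% and 5.26% of all tested genes did. The median was -0.20 (batch 1 -0.80, batch 2 0.09). Upk3b, a uroplakin of mesothelium, had signals of 13.9, 18.9, 15.4 and 16.6 (GFP-positive), against 151, 43.0, 396 and 86.1 (GFP-negative), a difference of -2.51 ± 0.47 (log2, SE, adjusted p = 0.0154). Every GFP-positive array was below 22.5 for Upk3b, so it passed the filter only through the GFP-negative arrays. Bnc1, a zinc-finger protein of mesothelium and other epithelia, had signals of 52.0, 62.8, 43.1 and 41.7 (GFP-positive), against 287, 133, 753 and 225 (GFP-negative), a difference of -2.38 ± 0.40 (log2, SE, adjusted p = 0.0113). In both, the day 8 batch 1 array was the highest GFP-negative one, as it was for Lum. Gpm6a, a membrane glycoprotein, rose by 2.05 ± 0.30 (SE, adjusted p = 0.00669). It was at most 16.7 on the GFP-negative arrays, so it passed the filter only through the GFP-positive ones. The epicardial factors Tbx18 and Tcf21 differed by -0.18 ± 0.33 (SE, adjusted p = 0.744) and -0.59 ± 0.24 (SE, adjusted p = 0.145). Without the day 7 batch 1 pair 0 genes of this list fell.

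Of 14 tested Hox genes, 1 rose and 5 fell, where 9.04% and 5.26% of all tested genes did. The list median was -0.42 (batch 1 -0.68, batch 2 -0.38). All 5 that fell are of paralog groups 8 to 10: Hoxc8 (-1.93), Hoxa9 (-1.79), Hoxd9 (-1.25), Hoxa10 (-1.61) and Hoxc10 (-2.36). Hoxc8, Hoxa10 and Hoxc10 were below 22.5 on every GFP-positive array, so they passed the filter only through the GFP-negative arrays. With a stricter filter, at a signal of 100, 1 Hox gene was tested and 0 fell. A pattern by paralog group can therefore not be read from these genes. Hoxc10 had signals of 6.5, 10.7, 2.6 and 4.4 (GFP-positive), against 67.4, 27.9, 115 and 48.2 (GFP-negative), so GFP-positive cells were at the dim end of the scale. Hoxa9 had signals of 39.6, 35.1, 40.5 and 30.4 (GFP-positive), against 173, 89.1, 269.7 and 95.0 (GFP-negative), a difference of -1.79 ± 0.24 (SE, adjusted p = 0.00531), with no overlap, although a dimmer probe set had the opposite sign. The gene that rose, Hoxb5, is of a more anterior group, with a difference of 1.02 ± 0.24 (SE, adjusted p = 0.0344), and Hoxb1 to Hoxb4 had positive differences that did not pass. The count that fell was 2 without the day 7 batch 1 pair and 3 without the day 8 batch 1 pair. Among the 12 lowest genes, Tbx4, a T-box factor of hindlimb and lung, had signals of 41.0, 46.3, 22.1 and 34.8 (GFP-positive), against 309.8, 83.7, 425 and 157 (GFP-negative), a difference of -2.35 ± 0.44 (log2, SE, adjusted p = 0.0158). Pitx1, a homeobox factor of hindlimb, had signals of 49.3, 102, 67.0 and 56.8 (GFP-positive), against 408, 186, 595 and 185 (GFP-negative), a difference of -2.08 ± 0.36 (log2, SE, adjusted p = 0.0119). The rest of the 12 not yet given were Mab21l2 (-2.12) and Mbnl3 (-2.04), and Dppa5a below. Of the 12, Dppa5a, Tubb1 and Mbnl3 stayed past the threshold whichever pair was left out, and the other 9 did not.

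Pluripotency genes went in both directions, and their median depended on the filter. Of 16 tested, 6 rose and 1 fell, where 9.04% and 5.26% of all tested genes did. The list median was -0.04 (batch 1 0.18, batch 2 -0.16). With the stricter filter, at a signal of 100, 8 were tested, of which 5 rose and 1 fell, and the median was 0.94. The gene that fell, Dppa5a, an RNA-binding protein of stem and germ cells, had signals of 52.0, 34.7, 45.2 and 55.5 (GFP-positive), against 191, 240.2, 268 and 244 (GFP-negative). The fractions were far apart in every pair, with a difference of -2.18 ± 0.18 (log2, SE, adjusted p = 0.0017). Pou5f1 (Oct4) was dim and differed by -1.05 ± 0.29 (SE, adjusted p = 0.0545), and Nanog, Zfp42 and Utf1 were too dim to be tested. The 6 that rose were Tfcp2l1 (2.39), Tdgf1 (1.90), Klf4 (1.76), Klf2 (1.59), Lin28a (1.07) and Sall4 (0.81). The other probe sets of Tfcp2l1, at the dim end of the scale, differed by -0.019 and -0.011. Tdgf1, the Nodal coreceptor Cripto, which early heart muscle also expresses, had signals of 363, 284, 170.1 and 179 (GFP-positive), against 65.0, 76.2, 56.5 and 41.3 (GFP-negative), a difference of 1.90 ± 0.18 (log2, SE, adjusted p = 0.00177). Klf4, a zinc-finger factor of stem cells, epithelia and endothelium, had signals of 339.8, 263, 388 and 370.5 (GFP-positive), against 87.6, 97.9, 112 and 82.1 (GFP-negative), a difference of 1.76 ± 0.15 (log2, SE, adjusted p = 0.0017).

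Of 14 genes of primitive streak and early mesoderm, 2 rose and 2 fell, where 9.04% and 5.26% of all tested genes did. The median was -0.01. Cited1 (1.63) and Lhx1 (0.91) rose, and Snai2 (-0.94) and Msx1 (-0.67), both expressed in mesenchyme, fell. Cited1 was at most 15.1 on the GFP-negative arrays, so it passed the filter only through the GFP-positive ones. None of the 4 passed without the day 7 batch 1 pair, and 1 gene rose and 0 fell without either day 8 pair. Of 9 tested neural genes, 1 rose and 1 fell, where 9.04% and 5.26% of all tested genes did. Pax6, a paired homeobox factor of brain, eye and pancreas, rose by 1.28 ± 0.22 (SE, adjusted p = 0.0119). Cntnap2, a neuronal adhesion protein, fell, with a difference of -0.92 ± 0.18 (SE, adjusted p = 0.0172), with another probe set of opposite sign, and the list median was -0.04. Most neural genes, Sox1 and Tubb3 among them, were too dim to be tested. Neither Pax6 nor Cntnap2 passed without the day 7 batch 1 pair. Of 4 tested germ cell and placenta genes 2 fell, where 5.26% of all tested genes did. These were Rhox5 and Rhox9, with differences of -1.41 ± 0.33 (SE, adjusted p = 0.0337) and -1.15 ± 0.30 (SE, adjusted p = 0.0461), and the list median was -0.75. The count was 0 without the day 7 batch 1 pair, 0 without the day 8 batch 2 pair and 1 without either of the other pairs.

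Proliferation genes had mostly negative differences. Of 28 tested, 2 rose and 7 fell, where 9.04% and 5.26% of all tested genes did. In 23 of the 28 the difference was negative. The median was -0.29 (batch 1 -0.20, batch 2 -0.39), against -0.001 over all tested genes. Birc5, the mitotic and survival protein survivin, had signals of 1045, 1041, 655 and 713 (GFP-positive), against 1448, 1468, 1226 and 1425 (GFP-negative), a difference of -0.71 ± 0.12 (log2, SE, adjusted p = 0.0114). The mitotic cyclins Ccnb2 and Ccna2 fell, with differences of -0.62 ± 0.12 (SE, adjusted p = 0.018) and -0.58 ± 0.13 (SE, adjusted p = 0.0294), and so did the replication genes Mcm2 (-0.43), Mcm4 (-0.39), Mcm5 (-0.46) and Rrm2 (-0.50). The 2 that rose were Cdkn1c, an inhibitor of cyclin-dependent kinases, and Ccnd2, a cyclin of the G1 phase. Cdkn1c had signals of 3841, 3572, 3418 and 3136 (GFP-positive), against 2314, 1896, 2149.9 and 1133 (GFP-negative), a difference of 0.94 ± 0.14 (log2, SE, adjusted p = 0.00705). Ccnd2 rose by 0.83 ± 0.10 (SE, adjusted p = 0.00362). Mki67 and Top2a differed by -0.35 ± 0.15 (SE, adjusted p = 0.164) and -0.13 ± 0.12 (SE, adjusted p = 0.49). The count that fell was 1 without the day 7 batch 1 pair and 3 without the day 7 batch 2 pair.

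Genes that respond to cell dissociation and heat showed a difference between fractions in 5 of 18, where 14.3% of all tested genes did. Hspa1a, an inducible Hsp70, had signals of 1152, 68.3, 932 and 1026 (GFP-positive), against 216, 67.8, 173 and 138 (GFP-negative), a difference of 1.90 ± 0.42 (log2, SE, adjusted p = 0.0269). Its near-identical copy Hspa1b had signals of 1751, 201, 1262 and 1125 (GFP-positive), against 387, 108, 228 and 251 (GFP-negative), a difference of 1.90 ± 0.24 (log2, SE, adjusted p = 0.00442), and the probes may not separate the pair. Hspb1, a small heat shock protein that heart muscle also expresses, rose by 1.64 ± 0.21 (SE, adjusted p = 0.00435). In these 3 genes the GFP-positive array of day 7 batch 2 was far below the other 3 GFP-positive arrays, as it was for Apom, Rbp4 and Nepn. The immediate early genes Jun and Atf3 rose by 0.45 and 0.47, while Fos (-0.34), Egr1 (-0.17) and Dusp1 (-0.03) did not pass, and the list median was -0.01. The part of this response in the other differences was not tested, and without the pairing 0 of the 18 genes passed.

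Taken by day, the fractions differed on day 7 in 96 genes (0.824%), 90 of them higher (0.773%) and 6 lower (0.0515%), and on day 8 in 787 genes (6.76%), 593 higher (5.09%) and 194 lower (1.67%), each from 2 pairs in 1 limma fit. Of the 1665 genes called over both days, 1360 had a larger difference on day 8 than on day 7. The matching share over all tested genes was not computed. Their differences also spread more widely on day 8 (SD 0.642 in batch 1 and 0.866 in batch 2) than on day 7 (0.581 and 0.493). A test of the change between the days called 0 genes in limma (0%), with 357 at an unadjusted p under 0.05. The day 7 and day 8 counts therefore do not show that the days differ. The count of 0 does not show that the days are alike either. In simulated data the test recovered 0% of genes changed by a log2 of 1 or 2. The sarcomere median was 1.47 on day 7 and 2.19 on day 8, the endothelial surface median 1.37 and 2.21, and the secreted endoderm median 1.94 and 2.25. For erythroid genes the medians were -0.81 and -1.32. In batch 1 the sarcomere medians were 1.45 on day 7 and 1.74 on day 8, and in batch 2 they were 1.57 and 2.57. Without the day 8 batch 1 pair 139 genes passed the test between days, and without the day 7 batch 1 pair 1 did.

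Set against the 8 sorted arrays of days 5 and 6 in a limma fit of all 16 sorted arrays, the difference between fractions changed in 163 genes (1.4%). It was more positive on days 7 and 8 in 144 (1.24%) and more negative in 19 (0.163%), and 149 of the 163 were also called on days 7 and 8. The tested genes were those that passed the filter on days 7 and 8, so genes bright only on days 5 and 6 were left out. With a filter on 2 of the 18 arrays the count was 180 of 13379. Nkx2-5 itself had differences of 0.79, 0.07, 0.74 and 0.56 in the pairs of days 5 and 6, and of 1.41, 1.43, 1.62 and 1.94 in those of days 7 and 8, a change of 1.06 (adjusted p = 0.0462). Every later pair was above every earlier one. These calls are fragile: 0 remained without the day 7 batch 1 pair, without the day 8 batch 1 pair or without the day 8 batch 2 pair, 524 were made without the day 7 batch 2 pair, and 11 with an offset of 1 in place of 6.8.

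Secreted endoderm genes made up 10 of the 163, out of 18 tested, and epithelial genes 5 out of 16. Ttr had a change of 1.78 (adjusted p = 0.046), Apoe of 1.61 (adjusted p = 0.0414) and Rbp4 of 2.35 (adjusted p = 0.0423). Some genes had negative differences in 3 of the 4 pairs of days 5 and 6 and positive ones in all pairs of days 7 and 8. Epcam had differences of -0.94, -2.81, 0.47 and -1.91 on days 5 and 6, against 1.65, 0.99, 1.98 and 3.35 on days 7 and 8, a change of 3.29 (adjusted p = 0.046). Cldn6, a claudin of embryonic epithelia, had -0.71, -2.97, 1.13 and -1.52 in the early pairs and 2.10, 1.53, 2.10 and 3.64 in the late ones, a change of 3.36 (adjusted p = 0.0482). Foxa2 had an average difference of -1.90 on days 5 and 6 and of 1.33 on days 7 and 8, a change of 3.23 (adjusted p = 0.0476).

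Sarcomere genes had a median difference of 0.74 on days 5 and 6 against 1.88 later, but 0 of 21 passed the test of the change; for Myl2 the change was 2.27 (adjusted p = 0.0563) and for Myh6 1.67 (adjusted p = 0.0927). Endothelial surface genes had a median of 0.81 on days 5 and 6, and 0 of 24 passed. The VEGF receptor Flt1 did, with a change of 2.12 (adjusted p = 0.0444), and so did the Notch target Hey1, with 1.74 (adjusted p = 0.0476). Erythroid genes had an early median of 0.06, and Nfe2 passed, with a change of -1.55 (adjusted p = 0.0462). Tubb1 had differences of 0.45, 0.45, -1.27 and 0.28 on days 5 and 6, against -2.64, -0.96, -2.12 and -2.52 on days 7 and 8. Its change was -2.04 (adjusted p = 0.0482). Dppa5a had an average difference of -2.21 on days 5 and 6 and of -2.18 on days 7 and 8, a change of 0.02 (adjusted p = 0.98). Neural genes had an early median of -1.06, which was near 0 later, and 3 of 9 passed the test of the change.

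**Figure D4:**
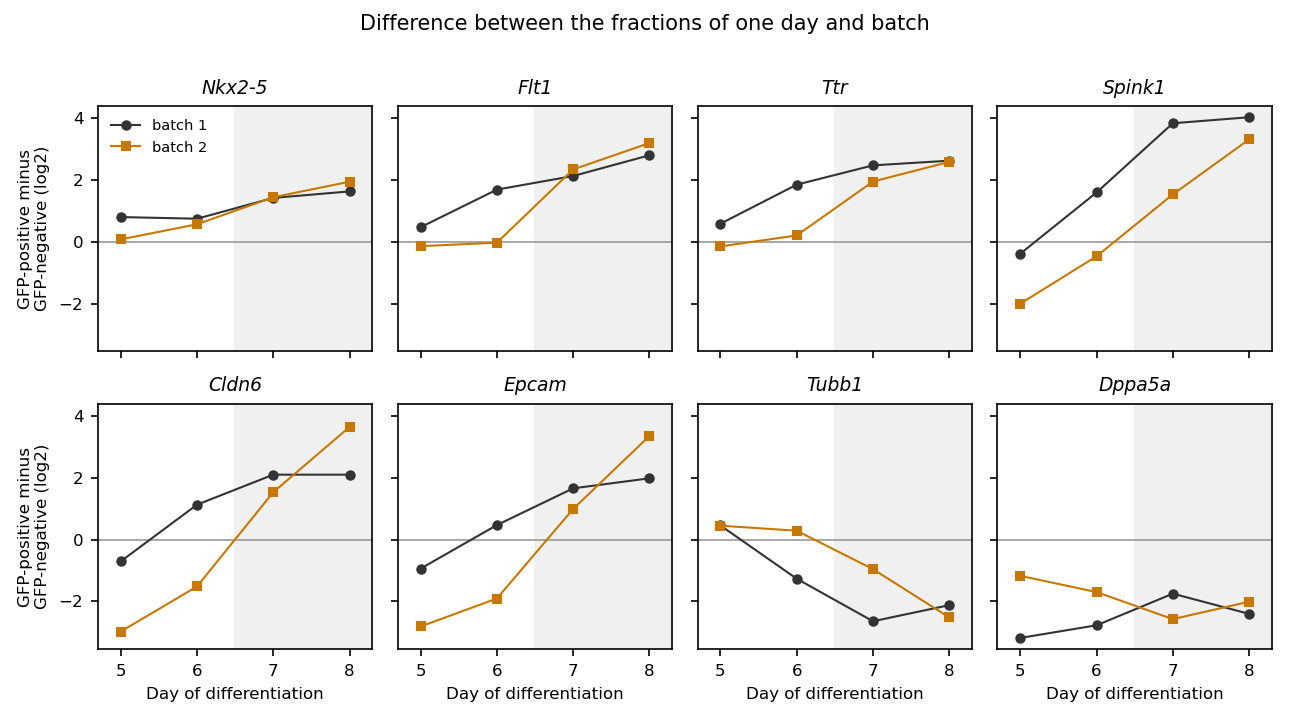
Difference between the GFP-positive and GFP-negative arrays of 1 day and batch (log2) against the day of differentiation for 8 genes, with batch 1 as circles and batch 2 as squares and days 7 and 8 shaded. Nkx2-5, Flt1 and Ttr are higher in each of the shaded pairs than in any earlier pair, Spink1 is not, Cldn6 and Epcam are negative on day 5 and positive on days 7 and 8, Tubb1 is negative on days 7 and 8, and Dppa5a is negative in all 8 pairs.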

How the data were processed

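The intensity values are MAS5 signals on a linear scale, deposited by the authors, and GCOS 1.4 and MAS5 are named in the submitters' processing notes. Per the labels, RNA was amplified in 2 rounds from a T7 oligo dT primer, which favours 3' ends. After trimming 2% at either end, the mean was 150.0008 to 150.0012 on the 18 arrays, so each value is relative to its array's total. Arrays have no depth, and precision is limited by how many there are.

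From the 45101 probe sets, 64 controls, 9160 without a gene symbol and 932 with several were left out. Symbols came from the platform annotation, and Entrez identifiers, matched for 34741 probe sets, changed 0 of them. Each of the 18193 genes was read from its brightest probe set by mean over the 18 arrays, type x being used only as a last resort. A gene was tested if 4 or more of the 8 arrays reached 22.5, the median over the whole table. A gene that is bright in only 1 fraction can pass this filter through that fraction.

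Values were log2(signal + 6.8), where 6.8 is the 25th percentile. limma 3.58.1 in R 4.3.3 was fitted with pair and fraction as terms and an intensity-dependent prior variance (two-sided, Benjamini-Hochberg over the 11645 genes). The fit of 4 pairs has 3 residual degrees of freedom, the fit by day 2 and the fit against days 5 and 6 has 6. The pairing comes from day and batch in the titles. As a check, the differences between batches correlated across genes between the fractions with r = 0.436 on day 7 and -0.062 on day 8. In simulated data on 11645 genes, the comparison of days 7 and 8 recovered 57% of genes changed by a log2 of 1 and 86% of those changed by 2, the change against days 5 and 6 56% and 86%, and the change between days 7 and 8 0% of either.

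The members, the 26 gene lists (542 memberships, 403 of them tested) and the rules were chosen with earlier results of these data known. Lists are described by counts and medians only. Genes were named by rule: Nkx2-5 and Myh6, the 12 highest and 12 lowest called genes with the same sign in 4 pairs, up to 4 members of each list with the lowest p among those past the threshold, and 5 in each direction for the change between periods. Further list members and the genes of the closing observations were named after their values were seen. Promoters are from RefSeq (GRCm38.p6), matched by symbol, with the first start listed for a gene. Figures were drawn with Python 3.11.15 and matplotlib 3.10.9.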

Additional observations from a re-analysis of the deposited data

Results flagged for a closer look

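In 12 of 224 groups of 4 arrays examined, 1 array stood apart, by Dixon's ratio of the gap to its nearest neighbour over the range of the group, where chance gives about 1 in 20 groups. In 10 of the 12 that array was from day 7 batch 2. In the GFP-positive fraction it was the lowest array for Apom (ratio of gap to range 0.963), Hspa1a (0.923), Rbp4 (0.91), Myh7 (0.901), Id2 (0.883), Cldn9 (0.847) and Hbb-y (0.835). In the GFP-negative fraction it was the lowest for Bmp7 (0.963), Gp9 (0.855) and Hbb-y (0.851). The other 2 were GFP-negative arrays of batch 1, the day 7 array for Nkx2-5 (0.851), with 106 against 75.5 to 79.4 on the others, and the day 8 array for Birc5 (0.833), with 1226 against 1425 to 1468.

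The difference between fractions changed between days 5 and 6 and days 7 and 8, by limma's test of the change itself, in 29 of the named genes. Positive changes (log2) were found for the heart and muscle genes Hopx (1.398), Nkx2-5 (1.06), Irx5 (2.07) and Acta1 (2.13) and for Hspb1 (1.83). Among endothelial and signalling genes they were found for Flt1 (2.12), Spry2 (1.24) and Id2 (1.59), and for Cyp26a1 (1.74). Among endoderm and epithelial genes they were found for Foxa2 (3.23), Ttr (1.78), Apoe (1.61), Apom (2.78), Rbp4 (2.35), Mttp (1.90), Spink1 (3.49), Cpn1 (3.61), Nepn (3.19), Dpp4 (2.29), Cldn6 (3.36), Cldn9 (3.44) and Epcam (3.29). The neural gene Cntnap2 (1.12) was less negative on days 7 and 8. Negative changes were found for Tubb1 (-2.04), Fas (-1.83), Ccl6 (-1.72), Fermt3 (-1.71), Rab27b (-1.65) and Birc5 (-0.79). None of these calls held when the day 7 batch 1, the day 8 batch 1 or the day 8 batch 2 pair was left out, when 0 genes passed.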

How the results depend on the processing

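None of the 112 named genes, all of which passed on days 7 and 8, changed sign in the alternative runs checked. Omissions of 1 array were not checked for sign. A sign shared by all 4 pairs, as in most of these genes, cannot change when pairs or a batch are left out. In batch 2 alone all 112 fell short of the threshold, and 69 stayed past it whichever pair was left out. The count of 1665 stayed within 1.5 times under other offsets, scalings, filters, probe set rules, without the variance trend and with all 16 sorted arrays (1124 to 2436), as well as in batch 1 alone. With no replicate block, that is without the pairing, it was 960 (705 higher, 255 lower), and with 18 arrays and no replicate block 852. Batch 2 alone gave 0. Leaving out a pair gave 356 to 1347 calls, and leaving out 1 array with no replicate block 256 to 1938 (GFP-positive arrays of day 7 328 and 727 and of day 8 272 and 256, GFP-negative arrays of day 7 839 and 674 and of day 8 1938 and 700, batch 1 first). The test between days 8 and 7 kept a count of 0 except for pair omissions (0 to 139). The count of 163 changes against days 5 and 6 was 11 with an offset of 1, 266 with an offset of 32, 471 with equal array medians, 40 with no filter, 1 with a stricter filter, 5 without the variance trend, 0 with no replicate block (1340 genes at an unadjusted p under 0.05) and 0 to 524 over pair omissions. Alternatives for the single days were chosen after the data were seen. The day 7 count of 96 became 281 with equal array medians, 57 with means of all probe sets, 0 without the variance trend (1413 at an unadjusted p under 0.05), 32 with no replicate block and 0 to 854 over pair omissions. The day 8 count of 787 became 1311 with equal array medians, 501 with a stricter filter, 504 without the variance trend, 518 with no replicate block and 592 to 2780 over pair omissions. The cause of these shifts was not tested. Of 64 named genes with several probe sets, 8 had another of opposite sign. Others had a probe set of the same sign with a much smaller difference, such as Cpn1 (0.602), Hoxa10 (-0.25) and Pax6 (0.061 at the lowest). Signals near the bottom or the top of the scale limit what can be seen of a difference.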

Other observations

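Outside the lists, further genes of vessels were higher in GFP-positive cells, chosen here after their values were seen. Nos3, the endothelial nitric oxide synthase, had signals of 327, 210.5, 455 and 505 (GFP-positive), against 74.6, 56.0, 68.2 and 61.1 (GFP-negative), a difference of 2.34 ± 0.21 (log2, SE, adjusted p = 0.0017). Gja4, a connexin of arterial endothelium, had signals of 593, 376, 768 and 788 (GFP-positive), against 133, 102, 127 and 87.7 (GFP-negative), a difference of 2.38 ± 0.20 (log2, SE, adjusted p = 0.0017). Neither overlapped between the fractions. The caveolae proteins Cav1 and Cav2 rose by 2.67 and 2.44, and the surface protein Mcam by 2.36. Ctsh, a lysosomal protease, had signals of 1119.5, 469.6, 1046 and 1334 (GFP-positive), against 111, 109, 105 and 88.0 (GFP-negative), a difference of 3.09 ± 0.26 (log2, SE, adjusted p = 0.0017).

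Genes outside the lists that were lower in GFP-positive cells were likewise chosen after their values were seen. Cx3cr1, a chemokine receptor of macrophages, had signals of 119, 38.5, 279 and 198 (GFP-positive), against 508, 43.0, 1054 and 811 (GFP-negative), a difference of -1.51 ± 0.31 (log2, SE, adjusted p = 0.0216). Cd14, Mpeg1 and Cybb, a subunit of the phagocyte oxidase, fell too, with differences of -1.60 ± 0.34 (SE, adjusted p = 0.0241), -1.55 ± 0.26 (SE, adjusted p = 0.0104) and -1.62 ± 0.28 (SE, adjusted p = 0.0122). Trim10, an erythroid gene, had signals of 533, 831, 338 and 342 (GFP-positive), against 1299.5, 1858, 904 and 1905 (GFP-negative), a difference of -1.57 ± 0.21 (log2, SE, adjusted p = 0.00489). Twist2, a transcription factor of mesenchyme, had signals of 102, 90.3, 77.5 and 69.9 (GFP-positive), against 328, 154, 418 and 174 (GFP-negative), a difference of -1.48 ± 0.25 (log2, SE, adjusted p = 0.0112), with no overlap.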
